A study of Mus musculus with 8 samples.

Results

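A list of 38 genes that build and run autophagosomes and lysosomes was examined in mouse skeletal muscle. Members were taken by name, and 37 of the 38 had a row in the table of 55401 genes. Gene positions are those of GENCODE M21 on GRCm38. All 37 passed the filter on low values that left 13677 genes for testing, namely a mean of at least 10 normalized counts over the 8 muscles. The name without a row, *Vps34*, is an older name of *Pik3c3*, which is described with the other genes of the pathway.

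RNA was measured in whole tibialis anterior (TA) muscle of male mice aged 6 mo. The groups were 4 wild-type muscles (WT, C57/Bl6) and 4 *mdx5cv* muscles. The *mdx5cv* mouse carries a *Dmd* mutation on the same B6 background and is used as a model of Duchenne muscular dystrophy, in which muscle fibers lack dystrophin. The labels name no treatment in either group, and the study set dystrophic beside healthy muscle. The value per gene and muscle is a normalized count, a read count divided by a size factor of that muscle. The labels number the muscles but do not say which animal each came from, so the p-values measure the spread between these 8 samples.

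In macroautophagy, a double membrane encloses protein aggregates, glycogen or damaged organelles and delivers them to the lysosome, where acid hydrolases break them down. The ULK kinases start the process, a lipid kinase complex around Beclin 1 marks the growing membrane, and a ubiquitin-like conjugation system expands it and lets it hold the cargo receptors. The transcription factors TFEB, TFE3 and MITF (the MiT/TFE family) switch on lysosomal and autophagy genes through short E-box sequences in their promoters. Skeletal muscle depends on this flux, and inherited loss of the lysosomal proteins LAMP2 or acid alpha-glucosidase causes muscle disease in people.

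Because the list holds both the MiT/TFE factors and many genes that they can switch on, promoters were searched for the E-box core CACGTG and for the longer palindrome TCACGTGA, which contains it. Both read the same on either strand. RefSeq promoters on GRCm38.p6, 250 bases before to 50 bases after each gene start, were matched for 31 of the 38 members. CACGTG was present in 8 of these 31 genes (25.8%), beside 8.09% of the 27025 genes with a promoter in the table. TCACGTGA was present in 2 of the 31 (6.45%) and in 1.12% of all genes. These are descriptions of letters in a window, not of binding. The stretches that hold the motif are shown 5′ to 3′ with the motif in capitals, followed by the whole promoter of *Grn*, the member with the largest rise, in which neither motif was found.
Lamp1 (chr8:13159084-13159167, plus strand): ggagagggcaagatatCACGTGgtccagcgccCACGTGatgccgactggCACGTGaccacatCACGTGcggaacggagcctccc
Mcoln1 (chr8:3500432-3500495, plus strand): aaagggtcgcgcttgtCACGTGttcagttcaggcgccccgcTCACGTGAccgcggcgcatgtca
Atg3 (chr16:45158719-45158779, plus strand): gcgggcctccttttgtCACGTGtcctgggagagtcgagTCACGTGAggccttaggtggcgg
Gaa (chr11:119267807-119267844, plus strand): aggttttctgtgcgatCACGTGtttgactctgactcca
Atg5 (chr10:44268309-44268346, plus strand): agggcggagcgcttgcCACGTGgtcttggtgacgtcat
Rubcn (chr16:32868433-32868470, minus strand): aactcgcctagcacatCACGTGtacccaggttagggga
Atg7 (chr6:114670948-114670985, plus strand): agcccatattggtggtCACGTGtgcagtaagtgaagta
Bnip3 (chr7:138909593-138909630, minus strand): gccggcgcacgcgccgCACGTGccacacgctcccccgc
Grn (chr11:102430257-102430556, plus strand): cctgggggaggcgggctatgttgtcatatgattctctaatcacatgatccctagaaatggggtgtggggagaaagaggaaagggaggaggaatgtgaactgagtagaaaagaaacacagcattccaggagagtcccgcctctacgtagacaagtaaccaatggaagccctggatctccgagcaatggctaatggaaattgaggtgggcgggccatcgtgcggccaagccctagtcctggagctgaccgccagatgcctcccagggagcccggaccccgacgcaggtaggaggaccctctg
*Lamp1* had 4 copies of CACGTG in 84 bases, and *Mcoln1* and *Atg3* each had 1 copy of the longer TCACGTGA beside a plain CACGTG.

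The WT muscles held 13862559 to 14921057 recovered reads, and the *mdx5cv* muscles 13175524 to 14502624. *Dmd* itself had 6914, 8155, 6579 and 6169 normalized counts in WT replicates 1 to 4 and 4399.6, 4056, 3941 and 3461 in *mdx5cv* replicates 1 to 4, and every *mdx5cv* muscle was below every WT muscle (log2 fold change -0.81, SE 0.12, limma adjusted p = 0.000177). Fast-fiber markers were abundant in every muscle, with a summed count of 768430 to 1324420 over 9 genes. Cell type markers differed between the groups. Of 12 macrophage markers, 11 were higher and 1 (*Cd163*) was lower in *mdx5cv*, and their summed normalized count was 667 to 1012 in WT and 4877 to 12124 in *mdx5cv*. *Fcgr1* had no read in WT replicate 1. Fibroblast markers were higher for 7 of 8 genes, and all 6 markers of regenerating fibers were higher, with summed counts of 244 to 366 in WT and 2494 to 9043 in *mdx5cv*. Of these 6, *Mymk* and *Chrng* had no read in WT replicates 1 to 3. These 2 genes and the macrophage markers *Cd14*, *Itgam* and *Fcgr1* passed the filter on low values only through their *mdx5cv* counts. With at least 10 normalized counts required in every muscle, 8 macrophage and 4 regenerating-fiber markers were higher. *mdx5cv* replicate 4 had the highest macrophage, fibroblast and regenerating-fiber sums. In whole muscle, a change in the share of a cell type and a change in RNA per cell cannot be told apart.

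Of the 37 genes, 7 rose in *mdx5cv* muscle (*Grn*, *Cd63*, *Npc2*, *Hexa*, *Lamp2*, *Tfe3* and *Atg7*), 6 fell (*Optn*, *Pink1*, *Bnip3*, *Ulk2*, *Tfeb* and *Mitf*) and 24 did not pass the test. The test was limma on log2(normalized count + 1), called at a Benjamini-Hochberg adjusted p under 0.05 over all 13677 genes. Among all genes tested, 20.9% were called higher and 20.1% lower, so the member shares of 18.9% higher and 16.2% lower were near the background. With a log2 fold change of at least 1 in size, 3 members were higher and 1 was lower, beside 10.3% and 3.27% of all genes. In 6 members every *mdx5cv* muscle was above every WT muscle and in 7 every one was below, beside 20.3% and 19.8% of all genes. The median log2 fold change of the 37 was -0.03, and that of all genes was 0.00. By role, lumenal lysosomal proteins rose for 3 of 4 genes, and the mitophagy genes fell for 2 of 3. With the muscles scaled to equal totals in place of the authors' size factors, the split of 7 higher and 6 lower became 15 higher and 1 lower, because this scaling moves the median of all genes to 0.36.

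**Figure D1:**
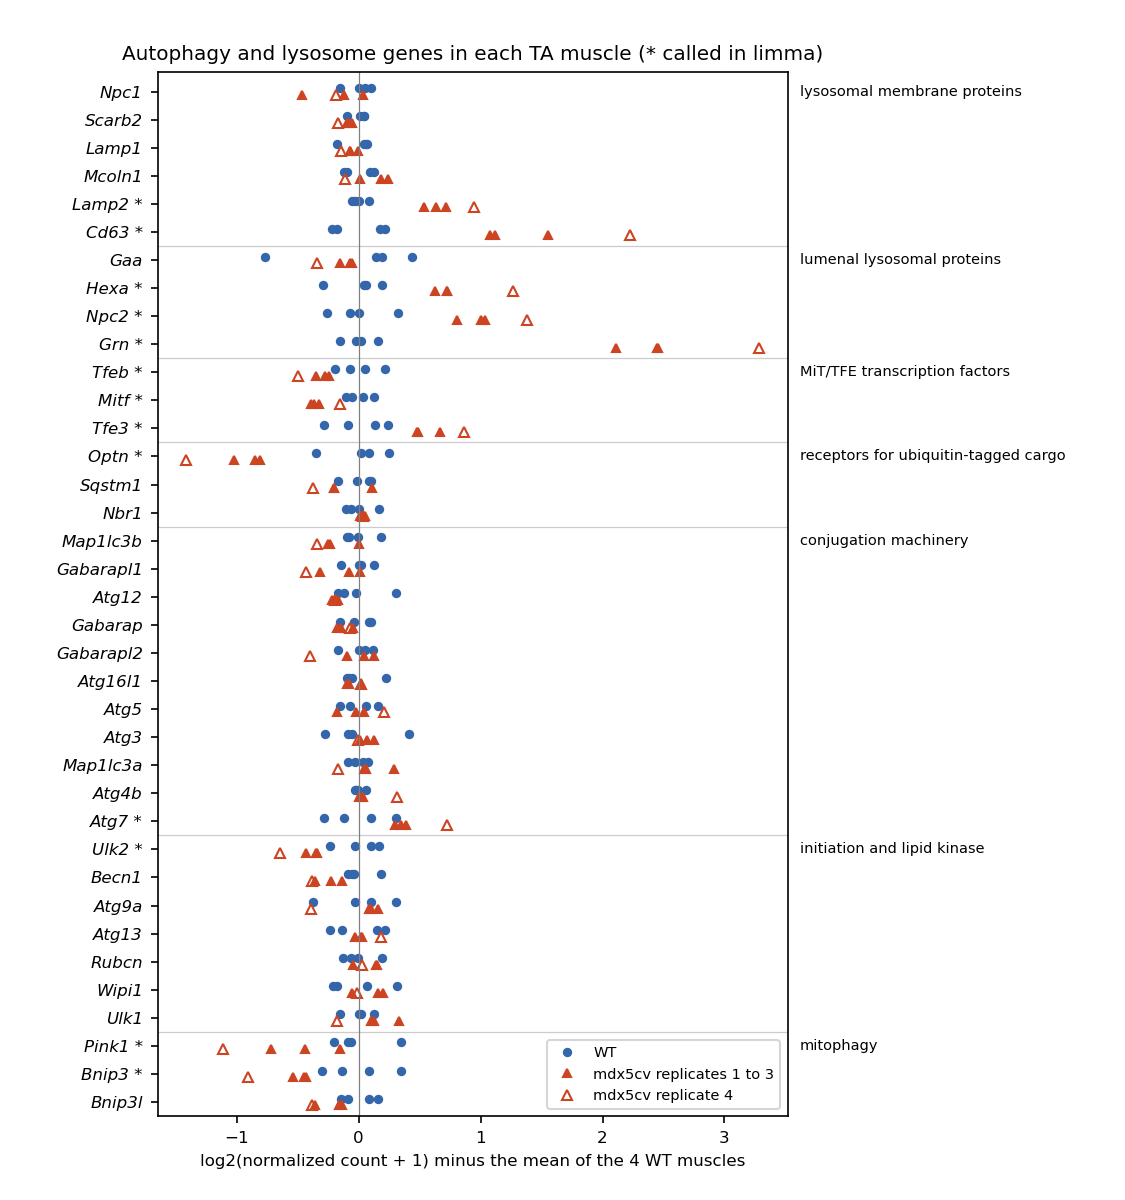
Each point is 1 muscle and the x axis is its log2(normalized count + 1) minus the mean of the 4 WT muscles, with genes grouped by role and an asterisk for genes called in limma. *Grn* lies farthest to the right and *Optn* farthest to the left, and *mdx5cv* replicate 4 (open triangles) is the outermost muscle for both.

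Lysosomal membrane proteins divided into 2 members that rose and 4 that were not called. *Cd63* (chr10:128900989-128912822), a tetraspanin of late endosomes, lysosomes and exosomes, had 152, 119.6, 116 and 157 normalized counts in WT replicates 1 to 4 and 398, 293, 286 and 634 in *mdx5cv* replicates 1 to 4. Every *mdx5cv* muscle was above every WT muscle, and replicate 4 was far above the others. The mean was 2.96-fold that of WT (136 ± 21.4 against 403 ± 162, SD, n = 4 each; log2 fold change 1.49, SE 0.22, limma adjusted p = 0.000169). *Lamp2* (chrX:38401357-38456454), which is needed for fusion of autophagosomes with lysosomes and for chaperone-mediated autophagy, had counts of 848, 801, 772 and 784 in WT and 1314, 1158, 1246 and 1547 in *mdx5cv*. The WT muscles were close together, and all 4 *mdx5cv* muscles were higher, 1.64-fold in the mean (log2 fold change 0.71, SE 0.11, limma adjusted p = 0.00019). *Lamp1*, the other major glycoprotein of the lysosomal membrane, had 4112, 4021, 4085 and 3458 in WT and 3727, 3904, 3724 and 3545 in *mdx5cv*. These ranges overlapped and the log2 fold change of -0.07 (95% interval -0.28 to 0.14) was not called.

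The remaining membrane proteins also overlapped between the groups. *Npc1*, which encodes the membrane protein of the NPC1 and NPC2 pair that exports cholesterol from lysosomes, had 789.6, 761, 682 and 815 normalized counts in WT and 781, 698, 549 and 667 in *mdx5cv*. Its lowest value was in *mdx5cv* replicate 3, and the log2 fold change was -0.19 (95% interval -0.44 to 0.07). *Scarb2* encodes LIMP-2, which carries glucocerebrosidase to the lysosome, and had a log2 fold change of -0.10 (-0.29 to 0.09). *Mcoln1*, which encodes the lysosomal calcium channel TRPML1, had a log2 fold change of 0.08 (-0.18 to 0.34).

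Proteins of the lysosomal lumen held 3 of the 4 largest rises. *Grn* (chr11:102430315-102437048) encodes progranulin, a secreted glycoprotein that is sorted to lysosomes and is abundant in macrophages. It had 135, 124, 139 and 154 normalized counts in WT and 754, 758, 597 and 1347 in *mdx5cv*. The WT muscles were tightly grouped, the lowest *mdx5cv* muscle (replicate 3) was well above all of them, and replicate 4 was the highest. The mean rose 6.26-fold, from 138 ± 12.2 to 864 ± 331 (SD, n = 4 each; log2 fold change 2.57, SE 0.20, limma adjusted p = 1.48e-06), and the fold was 5.09 without *mdx5cv* replicate 4. *Npc2* (chr12:84754562-84773152), the soluble cholesterol carrier that works with NPC1, had 188, 282, 226 and 214 in WT and 462, 452, 394 and 587 in *mdx5cv*. The groups did not overlap, and the mean rose 2.08-fold (log2 fold change 1.06, SE 0.15, limma adjusted p = 0.00012).

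*Hexa* (chr9:59539540-59565109) encodes the alpha subunit of beta-hexosaminidase, which degrades gangliosides. Its normalized counts were 347, 386, 352 and 275 in WT and 558, 558, 520.5 and 811 in *mdx5cv*. Replicates 1 to 3 of *mdx5cv* were close to each other and above every WT muscle, and replicate 4 stood higher again (1.8-fold in the mean; log2 fold change 0.83, SE 0.15, limma adjusted p = 0.000733). *Gaa* encodes acid alpha-glucosidase, which breaks down lysosomal glycogen, and was the exception among the 4 lumenal genes. It had 2134, 1133, 2210.2 and 2613 in WT and 1739.8, 1862, 1842 and 1525 in *mdx5cv*. WT replicate 2 was the lowest of all 8 muscles, and the other 3 WT muscles were above every *mdx5cv* muscle. The log2 fold change was -0.15 (SE 0.20, limma adjusted p = 0.573) with all muscles. It was -0.41 (limma adjusted p = 0.011) without WT replicate 2, the only 1 of 19 alternatives in which *Gaa* was called. Without WT replicate 4 the limma adjusted p was 0.977.

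**Figure D2:**
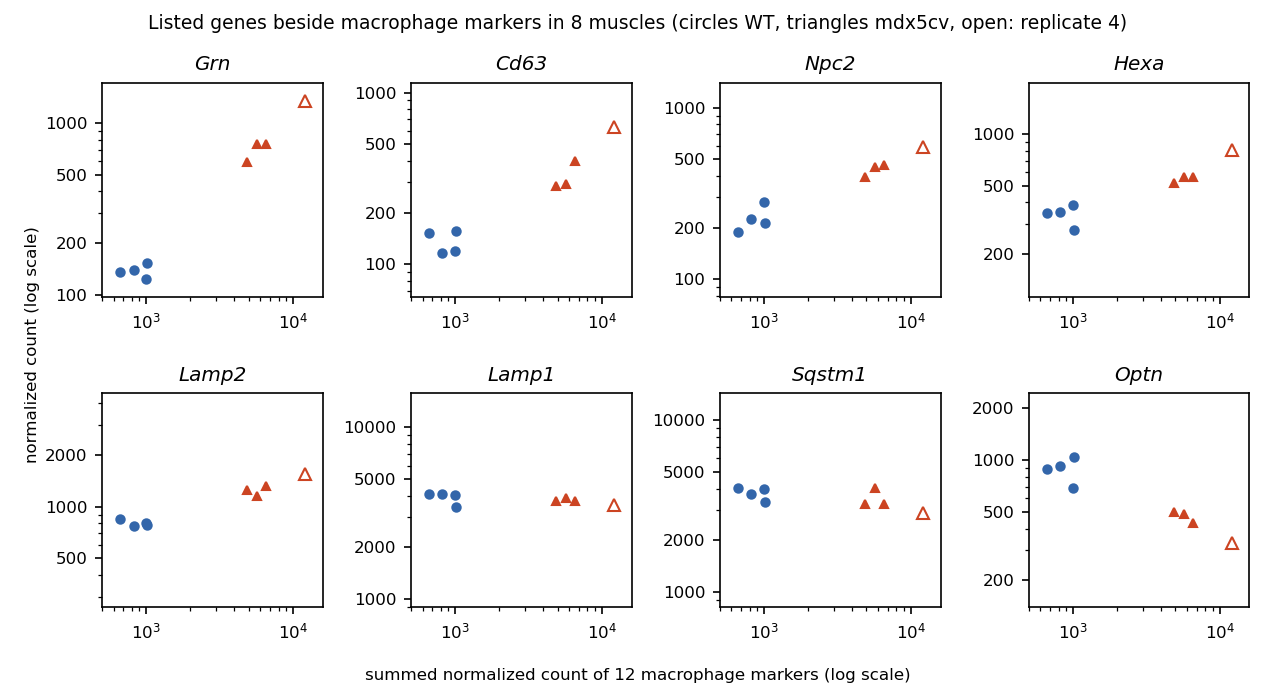
The x axis is the summed normalized count of 12 macrophage markers and the y axis the normalized count of 1 gene, both on log scales, with 1 point per muscle. The marker sum is 667 to 1012 in WT (circles) and 4877 to 12124 in *mdx5cv* (triangles), and the open triangle, replicate 4, is highest for *Grn*, *Cd63*, *Npc2*, *Hexa* and *Lamp2* and lowest for *Optn*.

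The rises of *Grn*, *Cd63*, *Npc2*, *Hexa* and *Lamp2* stood beside the rise of the macrophage markers. The mean of the macrophage sum, in which *Lyz2* had the most counts, was 8.37-fold that of WT (6.55-fold without *mdx5cv* replicate 4). That is above the fold of any of these 5 genes, but not every single marker was. *Csf1r* (6.21-fold), *Cd14* (4.88), *Mrc1* (2.27) and *Cd163* (0.342) were below *Grn* (6.26), and the other macrophage markers were above it. *mdx5cv* replicate 4 had both the highest macrophage sum and the highest value of each of the 5. *Tfe3* and *Atg7*, the other members that rose, were also highest in that muscle. So were the fibroblast and regenerating-fiber sums, whose means were 3.90-fold and 16.2-fold those of WT. *Lamp1* and *Sqstm1* did not follow the macrophage sum upward in replicate 4, as the plot against macrophage markers shows. The part of the macrophage, fibroblast and regenerating-fiber markers in these rises was not tested.

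All 3 MiT/TFE factors were called, and they moved in different directions. *Tfe3* (chrX:7762560-7775202) had 115, 79.0, 90.7 and 106 normalized counts in WT and 135, 136, 154 and 177 in *mdx5cv*. Every *mdx5cv* muscle was above every WT muscle, 1.54-fold in the mean (log2 fold change 0.63, SE 0.15, limma adjusted p = 0.00533). *Tfeb* (chr17:47737030-47792419), named as the master regulator of lysosome biogenesis, had 649, 793, 709 and 597 in WT and 563, 576, 535 and 483 in *mdx5cv*. The groups did not overlap, and the highest *mdx5cv* muscle (replicate 2) was just below the lowest WT muscle (replicate 4; log2 fold change -0.34, SE 0.11, limma adjusted p = 0.0252). *Mitf*, known from pigment cells and also present in muscle, had 336, 316, 286 and 297 in WT and 234, 246, 239 and 276 in *mdx5cv*. It also separated the groups by a narrow gap (log2 fold change -0.31, SE 0.11, limma adjusted p = 0.0341). Equal totals, which shifts all genes upward alike, put *Tfeb* at 0.01 and *Mitf* at 0.05, below the median of all genes (0.36) on that scaling. *Tfe3* was called in all 19 alternatives, *Tfeb* in 13 and *Mitf* in 11. No CACGTG was found in the promoters of *Tfe3*, *Tfeb* or *Mitf*.

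Of the receptors that link ubiquitin-tagged cargo to the autophagosome, *Optn* fell and *Sqstm1* and *Nbr1* were not called. *Optn* (chr2:5020642-5064051) encodes optineurin, a receptor for damaged mitochondria, bacteria and aggregates. Its normalized counts were 887, 688, 931 and 1041 in WT and 431, 485, 499.8 and 328 in *mdx5cv*. Every *mdx5cv* muscle was below every WT muscle, and replicate 4 was the lowest. The mean was 0.492 of the WT mean (887 ± 148 against 436 ± 77.6, SD, n = 4 each; log2 fold change -1.03, SE 0.15, limma adjusted p = 0.000194). *Optn* was the one member that stayed lower and called under equal totals (log2 fold change -0.67, limma adjusted p = 0.00278). *Sqstm1*, which encodes p62, had a log2 fold change of -0.17 (95% interval -0.43 to 0.09), and *Nbr1* had one of 0.03 (-0.17 to 0.23). *Sqstm1* shares 17.3% of its exon bases with *Mrnip* on the other strand. The *Nbr1* values of the 4 *mdx5cv* muscles lay between 1121 and 1151, within the WT range of 1033 to 1244.

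Among the 7 measured genes of initiation and of the lipid kinase step, *Ulk2* fell and the others were not called. *Ulk1* (chr5:110784488-110810097) and *Ulk2* (chr11:61775649-61855073) encode the kinases that start autophagosome formation. *Ulk2* had 1747, 1834, 1599 and 1383 normalized counts in WT and 1287, 1284, 1208 and 1042 in *mdx5cv*, and *Ulk1* had 654, 605, 538 and 601 in WT and 653, 755, 641 and 528 in *mdx5cv*. The *Ulk2* groups did not overlap (0.735 of the WT mean; log2 fold change -0.44, SE 0.11, limma adjusted p = 0.00765), whereas *Ulk1* overlapped (log2 fold change 0.10, 95% interval -0.16 to 0.35). *Becn1*, which encodes Beclin 1, had 528, 452, 447 and 436 in WT and 423, 361, 397 and 356 in *mdx5cv*. Every *mdx5cv* muscle was below every WT muscle, but the test was just missed (log2 fold change -0.28, SE 0.11, limma adjusted p = 0.0542). Of the exon bases of *Becn1*, 43.9% lie under exons of *Cntd1* on the other strand, a gene with a mean of 2.29 counts. *Atg9a* (vesicles that seed the membrane), *Atg13* (ULK complex), *Rubcn* (an inhibitor of the lipid kinase complex) and *Wipi1* (which binds the lipid made there) had log2 fold changes between -0.01 and 0.07. Counting by strand was not given in the sources used here, so reads of such overlapping genes may not be told apart.

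In the conjugation machinery, 1 of 11 genes was called. *Atg7* encodes the E1-like enzyme that starts both conjugation reactions. Its normalized counts were 88.2, 103, 78.5 and 119 in WT and 126, 123, 118 and 159 in *mdx5cv*. WT replicate 4 lay among the *mdx5cv* muscles, so the groups overlapped, and the rise was 1.35-fold in the mean (log2 fold change 0.44, SE 0.16, limma adjusted p = 0.0408). The call was lost in 8 of the 19 alternatives, among them without WT replicate 3 (limma adjusted p = 0.127) and without *mdx5cv* replicate 4 (0.114). *Atg3* (the E2-like enzyme), *Atg4b* (a cysteine protease of the system), and *Atg5*, *Atg12* and *Atg16l1* (the E3-like complex) had log2 fold changes from -0.19 to 0.10. All 4 *mdx5cv* values of *Atg12*, from 257 to 265, were below the WT range of 266 to 370. Its limma adjusted p was 0.217.

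The other conjugation genes given in every muscle were not called. *Map1lc3a* had 1273, 1372, 1228 and 1336 normalized counts in WT and 1345, 1355, 1591 and 1155 in *mdx5cv*. *Map1lc3b* had 1479.5, 1685, 1386 and 1404 in WT and 1246, 1489.6, 1259.8 and 1171 in *mdx5cv*. For *Map1lc3a* the highest and lowest muscles were both *mdx5cv*, and for *Map1lc3b* 3 of the 4 *mdx5cv* muscles were below all WT muscles. The *Gabarap* counts were 791, 718, 781 and 663 in WT and 652, 712, 666 and 702 in *mdx5cv*. *Gabarapl1* had 238, 215, 259.8 and 242 in WT and 191, 239.6, 225 and 177 in *mdx5cv*. *Gabarapl2* had 209, 244, 255 and 236 in WT and 243, 219.8, 257 and 178 in *mdx5cv*. All 3 genes overlapped between the groups, and *mdx5cv* replicate 4 was the lowest of the 8 muscles for *Gabarapl1* and *Gabarapl2*. The log2 fold changes were 0.06 for *Map1lc3a* (95% interval -0.18 to 0.29), -0.21 for *Map1lc3b* (-0.44 to 0.02), -0.11 for *Gabarap* (-0.32 to 0.10), -0.20 for *Gabarapl1* (-0.48 to 0.07) and -0.08 for *Gabarapl2* (-0.37 to 0.20). RNA levels say nothing of autophagic flux.

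Genes of mitophagy, the removal of mitochondria, were lower in 2 of 3 cases, where 20.1% of all genes tested were called lower. *Pink1* (chr4:138313409-138326307) encodes the kinase that marks damaged mitochondria for Parkin. It had 7003, 9312, 6875 and 6363 normalized counts in WT and 4435, 5399, 6587 and 3374 in *mdx5cv*. *mdx5cv* replicate 3 was above the lowest WT muscle, so the groups overlapped, and the mean was 0.67 of WT (log2 fold change -0.61, SE 0.19, limma adjusted p = 0.0194). *Bnip3* (chr7:138890836-138909519), a hypoxia-responsive receptor in the outer mitochondrial membrane, had 1428, 1716, 1231 and 1098 in WT and 926, 989.6, 999 and 719 in *mdx5cv*. The groups did not overlap (0.664 of the WT mean; log2 fold change -0.58, SE 0.15, limma adjusted p = 0.0066). *Bnip3l*, its paralog, had 609.7, 642, 542 and 520.1 in WT and 450.2, 525, 515 and 443 in *mdx5cv*. *mdx5cv* replicate 2 was just above the lowest WT muscle and the gene was not called (log2 fold change -0.26, SE 0.11, limma adjusted p = 0.0748).

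*mdx5cv* replicate 4 had the lowest value of *Optn*, *Pink1*, *Bnip3*, *Ulk2* and *Tfeb*. *Mitf*, which also fell, went the other way and was highest among the *mdx5cv* muscles in replicate 4 (276, against 234, 246 and 239). In the same muscle the summed fast-fiber markers were also lowest, at 768430, against 1057850 to 1187260 in the other *mdx5cv* muscles and 1112170 to 1324420 in WT. Of the 9 fast-fiber markers 4 were lower in *mdx5cv* and none was higher. Without WT replicate 3 or *mdx5cv* replicate 1 or with equal totals 2 were lower, and with no filter on low values 1 was. Endothelial markers were lower for 4 of 5 genes (2 with equal totals), with sums of 2717 to 3285 in WT and 1674 to 2164 in *mdx5cv*. Slow-fiber markers were higher for 4 of 6 genes and lower for 1. The part of these markers in the falls was not tested. Leaving out *mdx5cv* replicate 4, 6 members were higher and 5 lower, with *Atg7* and *Tfeb* no longer called.

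Within-muscle differences between related genes hardly depend on how a muscle is scaled, so 9 pairs were compared by an exact two-sided permutation test over the 8 muscles, whose smallest possible p is 0.0286. In 5 pairs the groups did not overlap, each with an exact p of 0.0286 and an adjusted p of 0.0514 over the 9 pairs, which misses 0.05. For *Tfe3* minus *Tfeb* this was fixed by the single genes, since *Tfe3* lay wholly above WT and *Tfeb* wholly below. Among all single genes, 20.3% lay wholly above WT and 19.8% wholly below. The share of separated pairs over all genes was not computed, so the count of 5 has no background beside it. *Npc2* minus *Npc1*, as a difference of log2(normalized count + 1), was -2.06, -1.43, -1.59 and -1.92 in the WT muscles and -0.76, -0.63, -0.48 and -0.18 in the *mdx5cv* muscles. *Npc2* gained 1.24 log2 units on *Npc1*. *Tfe3* minus *Tfeb* was -2.49, -3.31, -2.95 and -2.48 in the WT muscles and -2.05, -2.08, -1.79 and -1.45 in the *mdx5cv* muscles. The difference narrowed by 0.97.

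*Lamp2* minus *Lamp1* moved from -2.28, -2.33, -2.40 and -2.14 in the WT muscles to -1.50, -1.75, -1.58 and -1.20 in the *mdx5cv* muscles. This was a shift of 0.78 toward *Lamp2*. *Ulk2* minus *Ulk1* shifted by -0.54, and *Bnip3l* minus *Bnip3* by 0.32. In the other 4 pairs the groups overlapped. *Map1lc3b* minus *Map1lc3a* differed by -0.26 (exact p = 0.0571, adjusted 0.0857). *Gabarapl1* minus *Gabarap* differed by -0.10 (exact p = 0.457), *Gabarapl2* minus *Gabarap* by 0.03 and *Mitf* minus *Tfeb* by 0.03 (exact p = 0.886 for both).

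**Figure D3:**
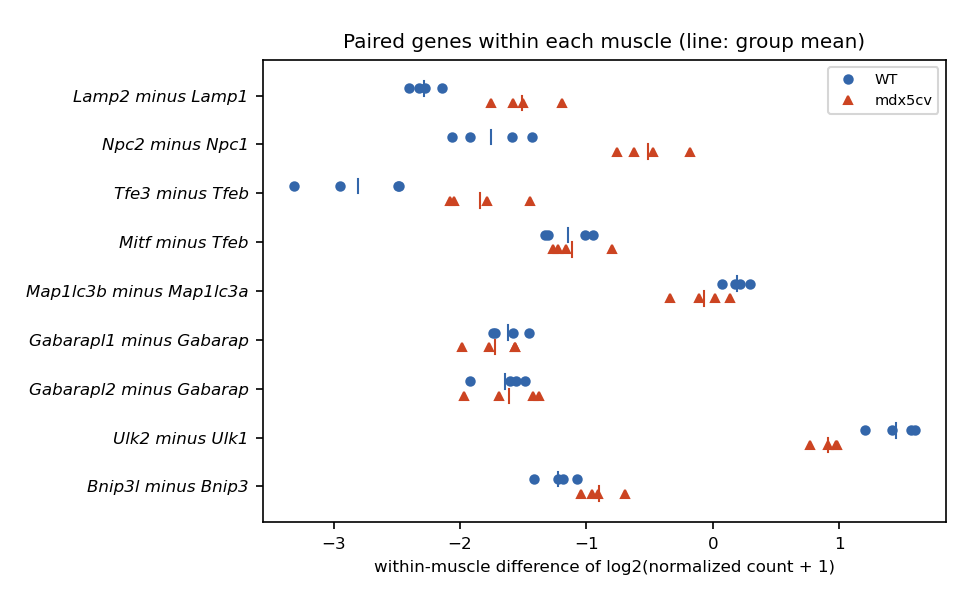
The x axis is the difference of log2(normalized count + 1) between the named genes within each muscle, with circles for WT, triangles for *mdx5cv* and short lines for group means. The groups are apart for *Lamp2* minus *Lamp1* (0.78), *Npc2* minus *Npc1* (1.24), *Tfe3* minus *Tfeb* (0.97), *Ulk2* minus *Ulk1* (-0.54) and *Bnip3l* minus *Bnip3* (0.32), and overlap for the other 4 pairs.

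Levels of different genes were compared per kilobase of the union of all annotated exons. This length can exceed that of the transcripts present, which lowers the value of a gene. In WT muscle the highest level was that of *Pink1* (2764 normalized counts per kb), followed by *Lamp1* (1465), *Sqstm1* (1121) and *Map1lc3a* (1103). *Tfe3* (10.5) and *Atg7* (13.9) were the lowest. *Pink1* was also highest in *mdx5cv*, at 1851 per kb. *Grn* rose from 39.7 to 249 per kb, past *Optn*, which went from 236 to 116. *Lamp2* remained below *Lamp1*, at 138 against 1392 per kb in *mdx5cv*. Much of this gap came from the exon unions of 9552 and 2675 bases, as the mean normalized counts were 1316 and 3725. Among the MiT/TFE factors *Tfeb* had the highest level in both groups (121 and 95.1 per kb), above *Mitf* (49.8 and 40.2) and *Tfe3* (10.5 and 16.2).

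The surrounding pathway was read from 8 lists of 119 further genes, of which 117 were tested. In these lists 34 genes were higher and 13 lower, or 29.1% and 11.1% of those tested, beside 20.9% and 20.1% of all genes. With equal totals the split was 66 higher and 2 lower. The lysosomal hydrolases and their activators held most of the rises. Of 24, 18 rose and 1 fell, with a median log2 fold change of 0.79 beside 0.00 over all genes, and 15 were higher without *mdx5cv* replicate 4. *Galns* (keratan and chondroitin sulfate breakdown), *Lipa* (lysosomal acid lipase) and *Gusb* (beta-glucuronidase) had the largest rises, at 2.15 (limma adjusted p = 0.000175), 1.96 (5.74e-05) and 1.68 (0.000105). *Smpd1*, acid sphingomyelinase, was the one that fell (-0.44, 0.0101). The macrophage marker sums given before stood beside these rises as well, and their part was not tested.

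Of 15 other lysosomal membrane proteins 6 rose and 3 fell (40% and 20%, beside 20.9% and 20.1% of all genes). The largest rises were those of the ion channel gene *Tpcn2* (1.84), *Cln3* (0.93) and the sialic acid transporter gene *Slc17a5* (0.71), and the falls were those of *Ostm1* (-0.55), *Laptm4b* (-0.42) and *Hgsnat* (-0.34), all as log2 fold changes. The 3 falls became 1 without *mdx5cv* replicate 2, 3 or 4, *Ostm1*, *Laptm4b* and *Hgsnat* were called in 18, 12 and 9 of the 19 alternatives, and equal totals gave 8 higher and 0 lower. In the proton pump that acidifies the lysosome, 3 of 15 genes rose (*Atp6v1a* 0.87, *Atp6ap2* 0.76, *Atp6v1b2* 0.47) and *Atp6v1g1* fell (-0.35). The share higher (20%) was near that of all genes, and the share lower (6.67%) was below it. The fall was not called without WT replicate 2 or 3 or *mdx5cv* replicate 3 or 4, and equal totals gave 8 higher and 0 lower. Of 18 genes of mTORC1 and nutrient sensing at the lysosome, 4 rose and 2 fell. The share higher (22.2%) was near that of all genes, and the share lower (11.1%) was below it. *Fnip2* (1.06), *Rraga* (0.44) and *Slc38a9* (0.36) led the rises, and *Rragd*, a Rag GTPase gene, fell by the most (-1.03, limma adjusted p = 5.31e-05), with *Tsc1* at -0.35. The 4 rises became 1 without WT replicate 1 or *mdx5cv* replicate 1 and with DESeq2, and 2 without WT replicate 3 or *mdx5cv* replicate 2, 3 or 4. *Fnip2* and *Rragd* were called in all 19 alternatives. The 2 falls became 4 without WT replicate 4, became 3 when *mdx5cv* replicate 3 or WT replicate 2 was left out, and became 1 with equal totals.

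None of 10 genes of initiation and the lipid kinase complex was called with the authors' size factors, *Pik3c3* among them, by limma, edgeR or DESeq2, and 1 had an unadjusted limma p under 0.05. With equal totals 6 of these 10 were higher, and 1 was lower without WT replicate 4 or without *mdx5cv* replicate 1. *Pik3c3*, which encodes the lipid kinase VPS34, had 179, 143, 197 and 197 normalized counts in WT and 169.5, 192, 227 and 173 in *mdx5cv*, with overlapping groups (log2 fold change 0.09, 95% interval -0.21 to 0.40). Of 10 genes of the autophagosome membrane and conjugation 2 fell, the protease genes *Atg4a* (-1.0, limma adjusted p = 8.19e-05) and *Atg4d* (-0.56, 0.00821), and with equal totals 6 were higher and 1 lower. The 2 falls were 20% of the list, near the 20.1% of all genes called lower. Of 12 selective receptors and regulators, *Wdfy3* rose (0.44) and *Phb2* (-0.43) and *Fundc1* (-0.40) fell, with 1 lower without WT replicate 1, 2 or 3 or *mdx5cv* replicate 3, and 3 higher and 0 lower with equal totals. The shares of 8.33% higher and 16.7% lower were below those of all genes (20.9% and 20.1%). Of 13 genes of fusion with the lysosome, *Plekhm1* (1.05) and *Vps18* (0.52) rose and the SNARE genes *Snap29* (-0.70) and *Stx17* (-0.37) fell. Each direction held 15.4% of the list, below the shares of all genes. The rise of *Vps18* was called in 9 of the 19 alternatives, and 1 gene of this list was higher with edgeR, with DESeq2 and without any 1 muscle except WT replicate 4. The lower genes numbered 1 without WT replicate 1 or 3 or *mdx5cv* replicate 4, and 6 were higher and 0 lower with equal totals.

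**Figure D4:**
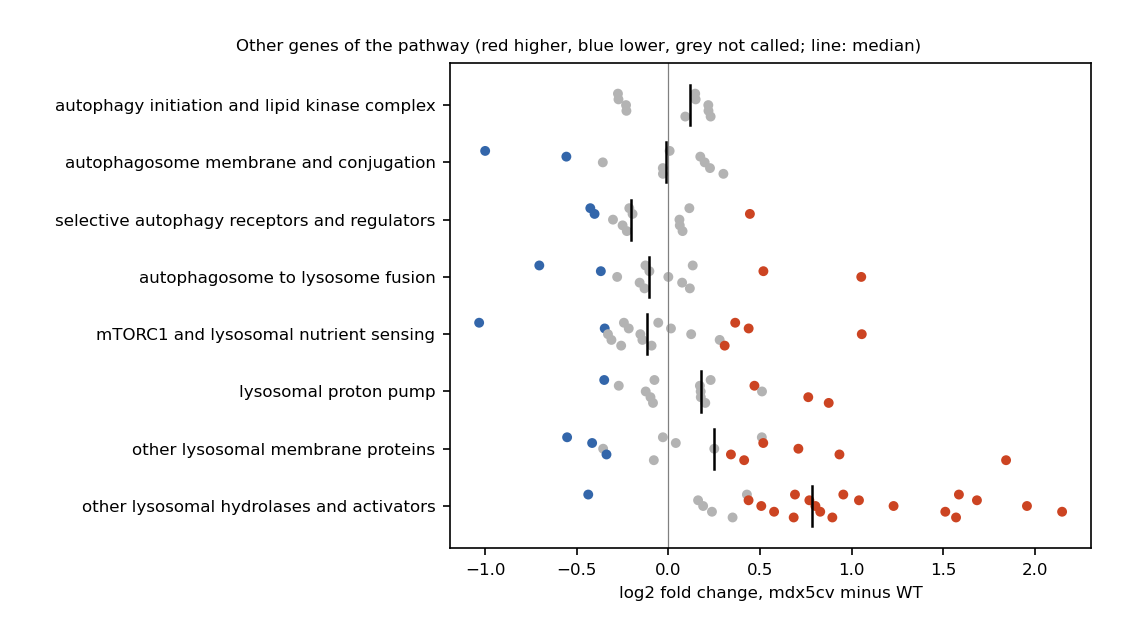
Each point is 1 gene of a pathway list and the x axis is its log2 fold change, *mdx5cv* minus WT, with red for genes called higher, blue for lower, grey for not called and a line at the list median. The hydrolases sit mostly to the right, with 18 of 24 called higher and a median of 0.79, while the list of initiation and the lipid kinase complex has no called gene with the authors' size factors (6 of 10 higher with equal totals).

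The promoter motifs were set beside these calls. CACGTG was found in 1 of the 7 members that rose (*Atg7*), in 1 of the 6 that fell (*Bnip3*) and in 6 of 18 matched members that were not called. *Lamp1* with its 4 copies and *Mcoln1* with the longer motif were both among those not called. Over the pathway lists CACGTG was found in 23 of 99 matched genes (23.2%), and TCACGTGA in 10 (10.1%).

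Across 19 alternatives of scaling, filter, pseudocount, tool and left-out muscle, *Grn*, *Cd63*, *Npc2*, *Hexa*, *Lamp2*, *Tfe3* and *Optn* were called in every one at an adjusted p under 0.05. *Ulk2* and *Bnip3* lost their calls under equal totals alone. *Pink1*, *Tfeb*, *Mitf* and *Atg7* were called in 15, 13, 11 and 11 of the 19. *Mitf* missed the threshold with the replicate number as a block (limma adjusted p = 0.0524) and *Becn1* passed it there (0.0487), as did *Bnip3l* without WT replicate 4 (0.0492).

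**Figure D5:**
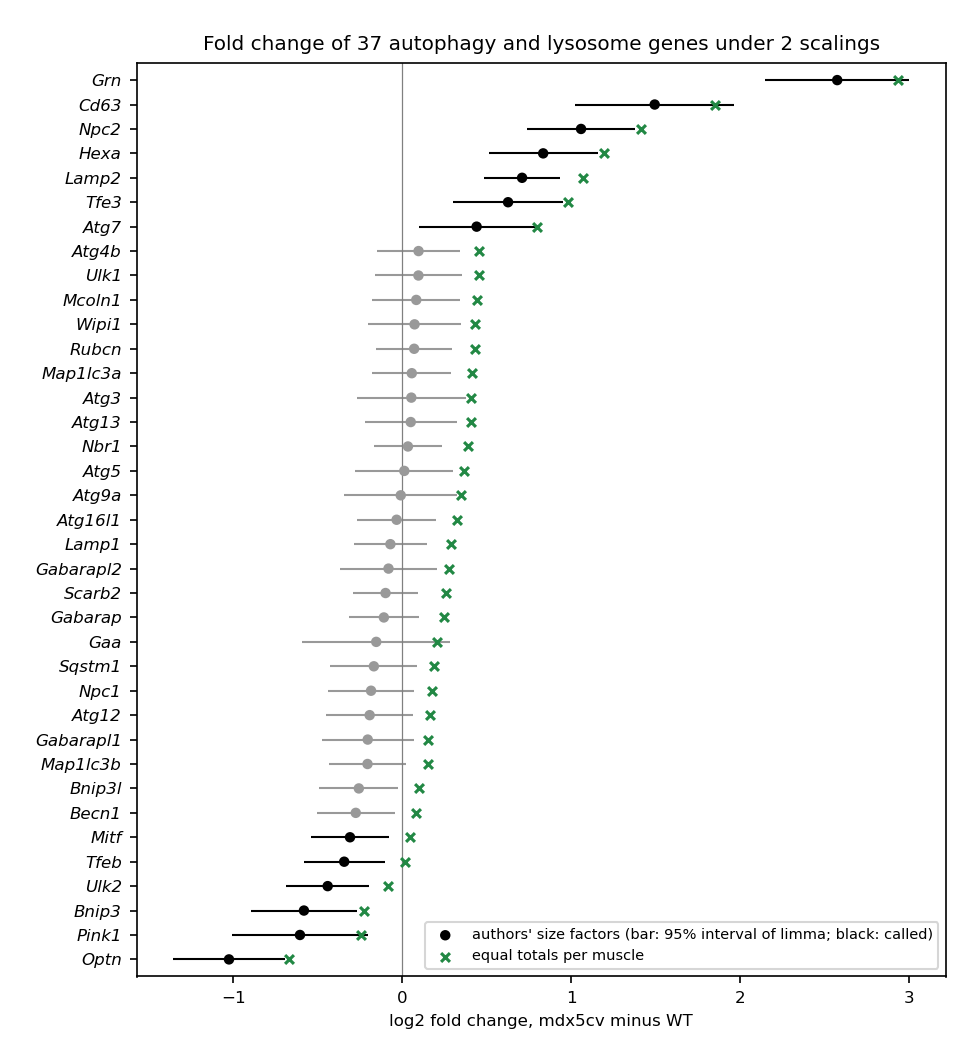
The x axis is the log2 fold change of each of the 37 genes, *mdx5cv* minus WT, with circles and 95% limma intervals for the authors' size factors (black where called) and crosses for equal totals per muscle. Every cross lies to the right of its circle, and *Optn* remains at -0.67 while *Tfeb* (0.01) and *Mitf* (0.05) come to lie at about 0, where the median of all genes is 0.36.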

How the data were processed

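Total RNA libraries made with a stranded kit were sequenced from 4 WT and 4 *mdx5cv* TA muscles. The deposited values are a signal: the authors scaled the reads of every gene by 1 size factor per muscle. The submitters' processing notes name Trim Galore 0.6.4, STAR 2.6.0c, SAMtools 1.9, featureCounts, DESeq2 1.26.0 and mm10, without roles, and the counting options were not given in the sources used here. Whole reads were recovered for 100% of values (tolerance 0.001), and 55141 of 55401 gene IDs were in GENCODE M21. Replicates differed beyond sampling noise (chi-square of 9.55 to 43.2 per degree of freedom), and each was counted once.

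Groups were compared with limma 3.58.1 (variance trend, no covariate, two-sided) on log2(normalized count + 1) for 13677 genes with a mean of at least 10, with Benjamini-Hochberg adjustment. A log2 fold change on this scale understates the change of low genes. edgeR 4.0.16 and DESeq2 1.42.0 on the recovered reads were alternatives. The members, pathway lists and markers were chosen with earlier results of these data known. Values of every muscle are given for the 5 largest rises and falls and for the paired genes, and pathway genes are named for up to 3 rises and 3 falls per list.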

Additional observations from a re-analysis of the deposited data

Results flagged for a closer look

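In 5 of 88 sets of 4 muscles, 1 muscle lay apart from the other 3 by Dixon's criterion (a gap above 0.829 of the range), where chance alone gives about 1 in 20, or 4.4 sets. All values are log2(normalized count + 1). *Lamp1* was lowest in WT replicate 4, at 11.76, and the other WT muscles lay between 11.97 and 12.01. *Hexa* was highest in *mdx5cv* replicate 4, at 9.67, where replicates 1 to 3 had 9.03 to 9.13. The same muscle had the highest *Atg4b*, at 7.94 against 7.63 to 7.67, and the lowest *Atg9a*, at 9.25 against 9.73 to 9.80. *Atg16l1* was highest in WT replicate 2, at 8.45 against 8.13 to 8.16. Of these 5 genes only *Hexa* was called between the groups by limma.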

How the results depend on the processing

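The counts of 7 higher and 6 lower members were within 1.5 times these numbers under the other settings, with 3 exceptions. Equal totals gave 15 higher and 1 lower, no variance trend gave 3 lower, and requiring a log2 fold change of at least 1 in size left 3 higher and 1 lower. Pathway genes (34 higher, 13 lower) became 66 and 2 with equal totals and 11 and 2 with that fold limit. Leaving out 1 muscle at a time gave 6 to 7 members higher and 4 to 7 lower, 27 to 33 pathway genes higher and 9 to 18 lower, and 5 to 6 pairs with separated groups. With equal totals the log2 fold change turned positive for *Lamp1* (0.29), *Scarb2* (0.26), *Npc1* (0.17), *Tfeb* (0.0138), *Mitf* (0.0475), *Sqstm1* (0.19), *Map1lc3b* (0.15), *Gabarap* (0.25), *Gabarapl1* (0.15), *Gabarapl2* (0.27), *Becn1* (0.0821), *Atg9a* (0.35), *Atg12* (0.16), *Atg16l1* (0.32), *Bnip3l* (0.10) and *Gaa* (0.20), since this scaling shifts every gene upward. When 1 muscle was left out, small fold changes of uncalled genes changed sign, and their ranges were -0.0017 to 0.0877 for *Nbr1*, -0.0221 to 0.13 for *Map1lc3a*, -0.15 to 0.0239 for *Gabarapl2*, -0.0377 to 0.19 for *Atg3*, -0.0526 to 0.0757 for *Atg5*, -0.13 to 0.12 for *Atg9a*, -0.0272 to 0.12 for *Atg13* and -0.0649 to 0.0413 for *Atg16l1*. Same-numbered muscles correlated by 0.03 to 0.15 in their deviations, and 2 of 4 WT and 3 of 4 *mdx5cv* muscles correlated best with their own number. Whether same-numbered muscles share more than a number was not tested. With the replicate block 7 members were higher and 6 lower, and 34 pathway genes were higher and 14 lower. With 4 muscles a group, a log2 difference smaller than the printed intervals could not be detected.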
